A study of Mus musculus with 2 samples.

Results

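The Ccl3/Ccl4 neutrophils were the lung neutrophils that carried the transcripts of the CC chemokines Ccl3 and Ccl4. They were chosen from single-cell counts by 3 sums of unique molecular identifiers (UMIs), each UMI standing for 1 captured RNA molecule. A barcode needed at least 20 UMIs of S100a8 and S100a9 together, at least 5 UMIs of Csf3r, Cxcr2, Retnlg, Mmp9, Il1r2 and Stfa2l1 together, and at least 3 UMIs of Ccl3 and Ccl4 together. It also needed at least 200 genes, at least 500 UMIs and at most 20% mitochondrial UMIs. Of 24725 lung cells that passed the filter on genes, UMIs and mitochondrial UMIs, 645 met the neutrophil part of the rule and 59 met all of it. All 59 came from the Cebpa dSftpc library, and they are set below beside the other 583 neutrophils of that library. Because S100a8, S100a9, the 6 neutrophil genes, Ccl3 and Ccl4 chose the cells, their values are descriptions.

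Cebpa dSftpc mice carry the Sftpc-CreER driver, which acts in alveolar type 2 (AT2) cells, and floxed Cebpa alleles. The controls were Cebpa fl/fl mice, which carry the floxed alleles too but no driver, so neither genotype was designed to lose Cebpa in neutrophils. Both received 5 daily tamoxifen injections of 75 mg/kg, starting at about 3 months of age. The methods add further weekly injections for mice examined over 3 months after the initial ones, and these lungs were taken 26 weeks after the first injection. Mice were of mixed background. Lungs of 3 mice per genotype entered 1 library each, prepared from digested whole lung with a droplet kit that reads the 3′ end of transcripts, and no mark separates the mice. With 1 library per genotype, and with both classes of neutrophil taken from the same library, no test was possible. Intervals below are exact 95% intervals that cover counting error only, not the spread between cells or mice.

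Neutrophils are short-lived granulocytes that enter inflamed tissue and hold S100a8 and S100a9, the subunits of calprotectin, as their most abundant cytosolic proteins. Ccl3 and Ccl4, also called MIP-1 alpha and MIP-1 beta, are secreted ligands of the receptor Ccr1 that attract monocytes, lymphocytes and further granulocytes. Their transcription in myeloid cells is known to depend on NF-kB, a factor held in the cytoplasm by inhibitors such as Nfkbia, which is itself an NF-kB target. Basophils, mast cells, natural killer cells and macrophages are other known sources of both chemokines.

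For Cebpa fl/fl, 11721 barcodes carried 69200420 UMIs, and 11487 of them passed the filter at a median depth of 4835 UMIs. For Cebpa dSftpc, 13373 barcodes carried 64697396 UMIs, and 13238 passed at a median depth of 2607 UMIs. The neutrophil genes picked out 3 of 11487 Cebpa fl/fl cells and 642 of 13238 Cebpa dSftpc cells (4.85%, interval 4.49 to 5.23). Ccl3/Ccl4 neutrophils were 0.446% (0.339 to 0.575) of Cebpa dSftpc cells and 0 of 11487 Cebpa fl/fl cells. That 0 has an exact upper limit of 0.0321%, and it stands for a share of 0.0261% when set to 3 cells. With 3 cells in place of 0, the log2 ratio of these shares was 4.09, and it would be smaller at the exact upper limit. The 3 Cebpa fl/fl neutrophils had 1471, 6296 and 728 UMIs and no UMI of either chemokine, and a count of 0 of 3 leaves the share of Ccl3/Ccl4 cells among them anywhere up to 70.8%. Whether neutrophils of the control lungs carried the chemokines was therefore not detectable at this number of cells. The libraries shared 45 barcodes, none of them among the 59 cells.

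Most of the chemokine signal was Ccl4. Summed over the 59 cells, there were 523 UMIs of Ccl4 and 47 of Ccl3, so Ccl3 made up 8.25% (6.12 to 10.8) of the sum. A UMI of Ccl4 was found in 56 cells, one of Ccl3 in 16, and one of both in 13. The name "expressing Ccl3 and Ccl4" thus holds cell by cell for 13 of the 59, while the other 43 Ccl4-positive cells had no Ccl3 UMI and 3 cells had Ccl3 alone. The level of Ccl4 was 899 CPM (UMIs per 1000000 UMIs of the same cells; 824 to 980) in the Ccl3/Ccl4 neutrophils and 36.3 (29.3 to 44.5) in the other neutrophils. The level of Ccl3 was 80.8 CPM (59.4 to 107) and 12.5 CPM (8.55 to 17.6). Counts of this 3′ assay are 1 per captured molecule and were not divided by length. The genes lie close together on chromosome 11 of GRCm38, Ccl3 at chr11:83647844-83649355 on the minus strand and Ccl4 at chr11:83662584-83664683 on the plus strand, 13228 bases apart. Their annotated transcripts share no run longer than 9 bases, so reads of one are not expected to be counted for the other.

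The sum of Ccl3 and Ccl4 per cell was 3 UMIs at the lowest, 6 at the median and 55 at the highest. The distribution was uneven: 18 cells with 10 or more UMIs held 362 of the 570 UMIs (63.5%). The cell with 55 UMIs had 50 of Ccl4 and 5 of Ccl3, and the next had 34 of Ccl4 and none of Ccl3. Just inside the threshold stood 10 cells with 3 UMIs and just outside it 25 cells with 2, while 75 neutrophils had 1 UMI and 483 had none. The cells just inside were deep, with a median of 10923.5 total UMIs against 4086 for the cells just outside. Among the 13 cells that shared both chemokines, the highest Ccl3 count was 8 UMIs, in a cell that also had 8 of Ccl4.

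**Figure D1:**
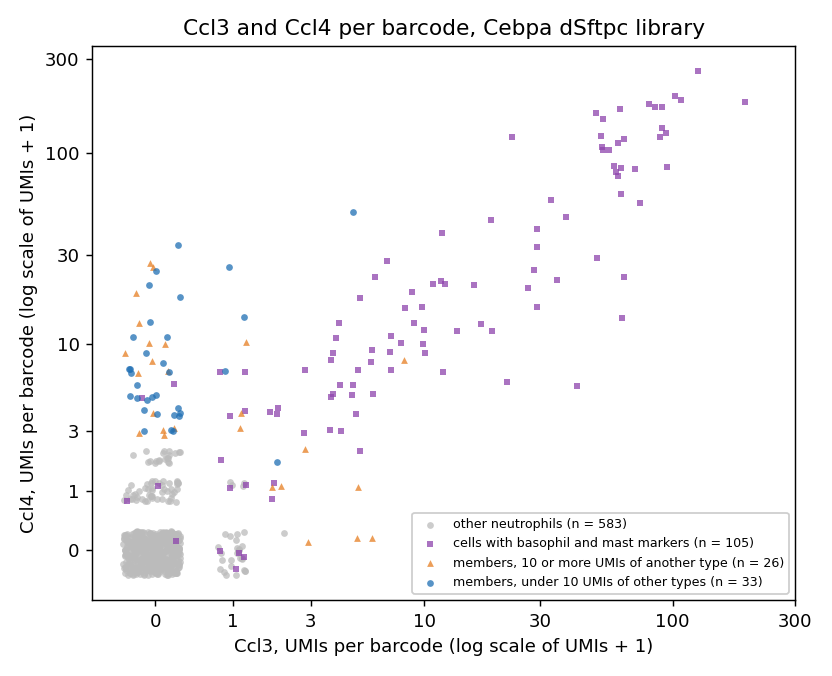
Ccl3 UMIs (x axis) against Ccl4 UMIs (y axis) per barcode of the Cebpa dSftpc library, on log scales of UMIs plus 1 with points jittered. Circles in blue are the 33 Ccl3/Ccl4 neutrophils with under 10 UMIs of each of 14 marker lists of other cell types, orange triangles the 26 with 10 or more, gray points the 583 other neutrophils, and purple squares 105 cells with basophil and mast cell markers. Most Ccl3/Ccl4 neutrophils line up at a Ccl3 count of 0, whereas the purple squares extend along the diagonal.

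Both genes were also counted in cells that should lack them. Endothelial cells of the same library had a UMI of Ccl3 in 4.0% and of Ccl4 in 5.79% of 4303 cells at a median depth of 1498 UMIs, for a summed level of 73.3 CPM. Of these cells, 82 (1.91%, 1.52 to 2.36) had 3 or more UMIs of both together, the cut that the rule uses. All 642 neutrophils, taken without regard to Ccl3 and Ccl4, had a UMI of Ccl3 in 7.32% and of Ccl4 in 20.1% of cells at a median depth of 2850 UMIs, for a summed level of 221 CPM. At the endothelial level they would hold 230.3 chemokine UMIs, and they held 695. The rule caps the other 583 neutrophils at 2 UMIs per cell and sets the 59 at 3 or more, so neither class was set against this level as a whole. In the 59 Ccl3/Ccl4 neutrophils, levels per cell ran from 84.8 to 9517 CPM with a median of 1133, and 5 cells lay under 3 times the endothelial level.

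The chosen cells were deeper than the others. The Ccl3/Ccl4 neutrophils had a median of 6151 UMIs (lowest 1220, highest 39435) and 1767 genes, and the other neutrophils 2442 UMIs (772 to 30771) and 1231 genes. Among neutrophils with 500 to 1499 UMIs, 3 of 186 were chosen (1.61%), and among those with 1500 to 2999 UMIs, 5 of 146 (3.42%). The share was 10.6% (19 of 180) from 3000 to 5999 UMIs, 33.3% (14 of 42) from 6000 to 9999 UMIs and 20.5% (18 of 88) from 10000 UMIs. After each cell was thinned to 1000 UMIs, a Ccl4 UMI remained in 59.3% of the 59 Ccl3/Ccl4 neutrophils and in 5.58% of 520 other neutrophils, with 63 shallower cells left out. The same shares for Ccl3 were 8.47% and 1.54%. Both chemokines had set the classes before thinning, so a difference between these shares was built in. When the rule itself was applied to thinned cells, 12 were chosen (2.73% of those that passed as neutrophils).

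Neutrophil genes that the rule did not use were found in both classes. Ly6g, a surface marker of mouse neutrophils, was at 68.8 and 79.7 CPM, G0s2, an inhibitor of lipolysis, at 1329 and 1464 CPM, and Trem1, a receptor that amplifies inflammatory signals, at 622 and 553 CPM. The genes of the gate, which chose both classes and so do not check the label, stood at 40081 and 42339 CPM for S100a8 and at 1369 and 1371 CPM for Csf3r, the receptor for granulocyte colony-stimulating factor. Most markers of basophils, mast cells and natural killer cells were at or near 0 in the 59 cells, whereas macrophage markers, described next, were not. Mcpt8, a basophil protease, had 1 UMI, Cpa3, a mast cell carboxypeptidase, had 1, and Fcer1a, a chain of the IgE receptor, had 0. Ms4a2 had 2 UMIs, Cyp11a1 had 1 and Cd200r3 had 0. They were not spread evenly, as 1 cell with 2 UMIs of each chemokine held 7 UMIs of the basophil and mast list without Hdc. Gata2, a transcription factor of the same list that endothelial cells also express, had 21 UMIs in 13 of the cells, at 36.1 CPM against 59.4 CPM in the other neutrophils. The natural killer cell genes Ncr1, Klrb1c, Klra8 and Prf1 were all at 0, and that list summed to 7 UMIs, of which 6 were Klre1. Of the 8 basophil and mast markers, Hdc, which makes histamine, had 608 UMIs, but at 1046 CPM it was close to its level in the other neutrophils (1020 CPM).

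Many barcodes carried transcripts of another cell type beside the neutrophil ones. The lists left out genes that other cell types are known to share, such as Chil3, Hdc and Pecam1, and the dendritic cell list was not among the 14. Over these 14 lists of markers of other cell types, 26 of the 59 Ccl3/Ccl4 neutrophils had 10 or more UMIs of 1 list, and 33 (55.9%) had under 10 of every list, against 347 of 583 (59.5%) for the others. In those 26, the list with most UMIs was endothelial in 11, monocyte in 7, C1q macrophage in 4, alveolar macrophage in 2 and T cell in 2. They had a median of 13532.5 UMIs, against 5315 in the 33, and ran from 1220 to 39435 UMIs. Of the 18 cells over 10000 UMIs, 17 belonged to them. Endothelial markers summed to 1457 CPM in the Ccl3/Ccl4 neutrophils and 2760 CPM in the others, with Cldn5, a tight junction protein, the most abundant at 190 and 1399 UMIs and none of the 7 genes at 0. The 9 alveolar macrophage markers without Chil3 and Siglecf summed to 683 and 389 CPM, with Ear2 the most abundant (111 and 409 UMIs) and none at 0. C1q macrophage markers summed to 829 and 1055 CPM, with Apoe the most abundant (287 and 1752 UMIs) and C1qc and Ms4a7 at 0 in the 59 cells. Monocyte markers summed to 1065 and 1160 CPM, with Ace, the angiotensin-converting enzyme, the most abundant (187 and 1064 UMIs). Cells with 10 or more monocyte UMIs were 27.1% of the Ccl3/Ccl4 neutrophils and 10.6% of the others. C1q macrophage shares were 20.3% and 10.1%, alveolar macrophage 10.2% and 4.29%, and endothelial 25.4% and 25.9%. AT2 shares went the other way, at 0% and 4.46%. In the 236 others with 10 or more UMIs, endothelial markers led in 122. C1q macrophage markers led in 31, AT2 in 25 and monocyte in 23. The part of depth in these shares was not tested. Dendritic cell markers, which did not enter the limit of 10 UMIs, had the largest sum in the Ccl3/Ccl4 neutrophils, at 2323 CPM against 1367 CPM in the others. The most abundant was Cd74, the invariant chain of MHC class II, with 752 and 2224 UMIs, of which 364 of the 752 lay in 1 cell.

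The makeup of the chemokine sum was also counted by these transcripts. Cells with under 10 UMIs of other types had 341 UMIs of Ccl4 and 10 of Ccl3, a Ccl3 share of 2.85% (1.37 to 5.18). Cells with 10 or more had 182 of Ccl4 and 37 of Ccl3, a share of 16.9% (12.2 to 22.5). Of the 37 Ccl3 UMIs, 24 lay in 4 cells, and both genes chose the cells, so these shares are descriptions. Each of the 7 cells with more Ccl3 than Ccl4 was among the 26, and so were the 5 cells under 3 times the endothelial level. The level of Ccl4 was 1955 CPM in the first set and 447 CPM in the second. Doublets were not called, and the part of a second cell in these values was not tested.

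**Figure D2:**
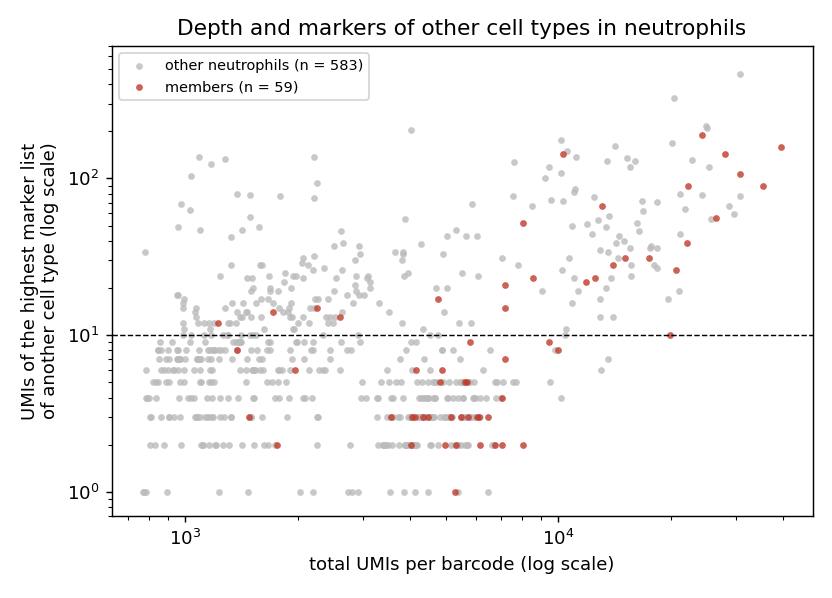
Total UMIs (x axis, log scale) against the UMIs of the highest of 14 marker lists of other cell types (y axis, log scale) for each neutrophil barcode of the Cebpa dSftpc library, red for the 59 Ccl3/Ccl4 neutrophils and gray for the 583 others. The dashed line marks 10 UMIs, and all but 1 of the 18 Ccl3/Ccl4 neutrophils over 10000 UMIs sit on or above it.

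Over all 59 cells, many of the genes that stood highest against the other neutrophils rested on 1 barcode: for 16 of the 20 with the highest lower bounds, over 50% of the UMIs lay in 1 cell. Of 6418 genes with at least 50 UMIs over both classes, 97 (1.51%) were 2-fold or more higher in the Ccl3/Ccl4 neutrophils and 313 (4.88%) 2-fold or more lower, with a median log2 ratio of -0.01. With the free RNA of the library subtracted, the counts were 299 higher and 157 lower, and the median ratio was 0.19. Genes past 2-fold had few UMIs, with medians of 80 and 81 against 147 for all genes. Of the 20, 4 (Plet1, Atp6v0d2, Chil3 and Mrc1) were on the full list of alveolar macrophage markers, Chil3 included, of which 4 of 7 compared were 2-fold higher. Of 6 C1q macrophage markers 0 were, with a median of -0.03. Gdf15, a stress-induced cytokine, was higher by 5.74 on the log2 scale (4.70 to 6.99), but 91 of its 97 UMIs lay in 1 cell. The metallothioneins Mt2 and Mt1, which bind zinc and copper, were higher by 4.78 and 3.83, with all 169 UMIs of Mt2 and 563 of the 621 UMIs of Mt1 in 1 cell. Hmox1, which degrades heme, was higher by 2.39, with 327 of 356 UMIs in 1 cell, and Ccl5, a chemokine of T cells, by 2.52, with 111 of 120 UMIs in 1 cell. Chil3, the chitinase-like protein Ym1, was higher by 1.79 and Lpl, lipoprotein lipase, by 1.81. For the 20 genes that led the list, 97.6% of the UMIs lay in the 26 cells with 10 or more UMIs of another type. Over all genes, these 26 cells held 407051 of the 581479 UMIs of the 59 cells. Without the top cell of each gene, Mt2, Hmox1, Ccl5 and Tuba1b turned to lower values. Among cells with under 10 UMIs of other types, Mt1, Hmox1, Chil3, Lpl, Prdx1 and Tuba1b did. The 2-fold lower genes included markers of other cell types, with 4 of 4 B cell, 5 of 5 mesenchymal, 4 of 4 erythroid, 6 of 7 AT2 and 4 of 8 endothelial markers compared, beside others such as Hilpda, a lipid droplet protein induced by hypoxia (-1.52), and Nfkbib, an NF-kB inhibitor (-1.35). Sftpc, the surfactant protein C of AT2 cells, was at 67.1 CPM against 479 CPM, a log2 ratio of -2.84 (-3.33 to -2.38). The immunoglobulin chain Igkc was at -3.07, the hemoglobin Hbb-bs at -2.52 and the matrix proteoglycan Dcn at -2.52. In the 59 cells these transcripts were spread thinly, with at most 4 UMIs of Sftpc in any cell. They were not spread so in the other neutrophils. There 26 cells had 10 or more UMIs of the AT2 list, 16 of the mesenchymal, 16 of the erythroid and 10 of the B cell list. Of the 59 cells, 0 had 10 or more of any of these 4 lists.

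Against this background, a second comparison was made within barcodes of like depth and little other RNA. It took the 28 Ccl3/Ccl4 neutrophils and the 147 other neutrophils that had 3000 to 10000 UMIs and under 10 UMIs of each of the 14 marker lists, and it was chosen after seeing the data. The 28 cells held 157826 UMIs (median 5553.5 per cell) and the 147 held 706565 (median 4547). Dendritic cell markers summed to 215 and 253 CPM in them. Basophil and mast cell markers without Hdc had 8 UMIs in each class, or 50.7 and 11.3 CPM. Of the 8 UMIs in the Ccl3/Ccl4 neutrophils, 7 lay in 1 cell. S100a8 and S100a9 made up a median of 16.2% and 15.8% of UMIs. In this range 16% (10.9 to 22.3) of neutrophils were Ccl3/Ccl4 neutrophils. The 28 cells had 318 UMIs of Ccl4 and 10 of Ccl3, and the 147 cells had 22 of both together. Per cell, the chemokine level in the 28 ran from 499 to 9517 CPM with a median of 1282. The rule and the range of depth keep each of them well over the endothelial level.

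The matched classes were close. Of 2096 genes with at least 50 UMIs, 15 (0.716%) were 2-fold or more higher in the Ccl3/Ccl4 neutrophils and 59 (2.81%) 2-fold or more lower, with a median log2 ratio of -0.05. Of the 562 genes with at least 200 UMIs, 0 were higher and 3 lower at this size. Wfdc17, a secreted whey acidic protein of activated myeloid cells, was at 4955 CPM against 3200 CPM, a log2 ratio of 0.63 (0.51 to 0.75). It was found in 26 of 28 and 131 of 147 cells, with medians per cell of 5011 and 1872 CPM, and its ranges overlapped, reaching 11305 and 21699 CPM.

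Nfkbia and Nfkbiz, which belong to the feedback of NF-kB, were among the 20 genes with the highest lower bounds. The list of NF-kB members and feedback targets as a whole had a median log2 ratio of 0.09 over 18 genes. With 10 or more against 0 chemokine UMIs it was 0.31 over 14 genes. Of the 18, 0 were past 2-fold in either direction, near the shares of all matched genes, 0.716% higher and 2.81% lower. Nfkbia, the inhibitor of NF-kB, was at 2059 CPM in the Ccl3/Ccl4 neutrophils and 1378 CPM in the others, a log2 ratio of 0.58 (0.39 to 0.76). Its medians per cell were 1419 and 554 CPM, and the ranges overlapped, from 0 to 6749 CPM and from 0 to 10381 CPM. Nfkbiz, a nuclear cofactor that NF-kB induces, was at 1147 and 715 CPM, a log2 ratio of 0.68 (0.43 to 0.93), with medians per cell of 767 and 442 CPM. Of the 28 cells, 2 had 30 or more chemokine UMIs, and they held 75 of the 325 Nfkbia UMIs and 30 of the 181 Nfkbiz UMIs. Without these cells the log2 ratios were 0.32 (0.11 to 0.52) for Nfkbia, 0.54 (0.27 to 0.81) for Nfkbiz and 0.52 (0.40 to 0.65) for Wfdc17. Over all 59 cells the log2 ratios of these genes were smaller, at 0.22, 0.43 and 0.13.

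Because Nfkbia and Ccl3 are both textbook NF-kB targets, the 250 bases before their starts are shown. Matches on either strand to GGGNNNNNCC, a loose form of the motif that NF-kB binds, are in capitals. The sequences are those of RefSeq on GRCm38.p6, read 5′ to 3′ on the strand of each gene. The Nfkbia window (chr12:55492648-55492897, minus strand) held 2 matches, which do not overlap, starting 212 and 29 bases before the gene. The match at 29 bases reads as the motif on the opposite strand. The Ccl3 window (chr11:83649379-83649628, minus strand) held 0. Of 32851 promoter windows of this length, 45.8% held at least 1 match on either strand, so a match is common and is a description only.
Nfkbia: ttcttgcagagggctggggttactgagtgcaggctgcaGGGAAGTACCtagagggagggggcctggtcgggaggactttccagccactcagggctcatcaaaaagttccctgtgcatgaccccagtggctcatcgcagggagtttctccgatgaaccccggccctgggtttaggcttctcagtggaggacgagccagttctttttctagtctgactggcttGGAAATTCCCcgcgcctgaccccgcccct
Ccl3: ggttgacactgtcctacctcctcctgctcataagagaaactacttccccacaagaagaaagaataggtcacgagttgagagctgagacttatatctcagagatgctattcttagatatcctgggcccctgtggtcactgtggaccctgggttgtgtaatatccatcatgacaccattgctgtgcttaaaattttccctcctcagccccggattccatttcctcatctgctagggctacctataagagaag

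The other genes of that ranking had varied roles. Kcnj2, a potassium channel, stood first, at 171 and 67.9 CPM, a log2 ratio of 1.33 and of 0.79 without its top cell. Hsp90ab1, a cytosolic chaperone, stood next, at 336 and 163 CPM (1.04). Dusp16, a phosphatase of MAP kinases (1.33, from 18 and 32 UMIs), Slu7, a splicing factor (1.27, from 20 and 37 UMIs), and Cpne2 and Hsbp1 (1.09 each) had few UMIs. Plaur, the urokinase receptor, was at 919 and 558 CPM, a log2 ratio of 0.72 (0.44 to 0.999), in 25 of 28 and 112 of 147 cells. Tlr2, a receptor for bacterial lipoproteins, was at 431 and 248 CPM, a log2 ratio of 0.80 (0.37 to 1.21). Hcar2, the niacin and hydroxybutyrate receptor, was at 482 and 304 CPM (0.66), and Tnfsf14, the cytokine LIGHT, at 152 and 69.3 CPM (1.13, from 24 and 49 UMIs). Stfa1, a stefin with near-identical family copies, was higher by 0.99 and by 0.21 without its top cell. Of the 20 genes with the highest lower bounds, 8 had an interval that reached 0 once the cell with most of their UMIs was left out. Leaving out that cell takes the highest value from 1 class only. The lower genes included Cks2, a regulator of cyclin-dependent kinases, at 44.4 and 161 CPM (-1.86), and Steap4, a metalloreductase, at 108 and 289 CPM (-1.42). Cnbp (-1.68), Nabp1 (-1.41), Tspan2 (-2.25), Psmb1 (-1.84) and Mdm2 (-2.14) also stood among the 15 with the lowest upper bounds. Ifi27l2a, an interferon-induced gene, was at 228 and 514 CPM (-1.17), in 13 of 28 and 50 of 147 cells. Asprv1, a retroviral-like protease of mature neutrophils, was at 209 and 423 CPM (-1.02), in 15 of 28 and 57 of 147 cells. These shares of cells were larger in the Ccl3/Ccl4 neutrophils, and the medians per cell of Asprv1 were 186 and 0 CPM. The highest cells had 1567 and 7664 CPM of Ifi27l2a and 1005 and 4498 CPM of Asprv1. Vegfa, the vascular growth factor, was at 19.0 and 76.4 CPM (-2.01, from 3 and 54 UMIs).

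Levels also varied with the amount of chemokine among the matched cells, and not in the same way for each gene. Nfkbia, Nfkbiz, Wfdc17, Plaur and Tlr2 were among the 20 genes ranked highest by the split at 3 UMIs in these same cells. Their higher levels over all cells with 3 or more UMIs follow from that choice, so the values are descriptions. In cells with 0, 1 to 2, 3 to 9, 10 to 29 and 30 or more UMIs of Ccl3 and Ccl4 there were 129, 18, 18, 8 and 2 cells. Across these sets Nfkbia was at 1361, 1505, 1740, 1674 and 5986 CPM. Nfkbiz was at 705, 787, 1007, 1116 and 2394 CPM, and Wfdc17 at 3296, 2513, 4282, 5348 and 9099 CPM. The step at 30 or more UMIs rests on 2 cells, and below it the intervals of neighbouring sets of Nfkbia and Nfkbiz overlap. Plaur was highest from 3 to 9 UMIs, at 563, 521, 1114, 605 and 399 CPM, and so was Tlr2, at 247, 255, 547, 279 and 0 CPM. Cxcl2, another neutrophil chemokine, was at 4998, 5083, 6550, 2999 and 6465 CPM. When the 10 cells with 10 or more chemokine UMIs were set against the 129 with none, the log2 ratios were 0.96 for Nfkbia, 0.995 for Nfkbiz, 0.91 for Wfdc17, -0.01 for Plaur and -0.19 for Tlr2. Over all 642 neutrophils, not matched for depth or other RNA, Nfkbia was at 1073, 1159, 1118, 1284 and 5986 CPM in the same sets.

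**Figure D3:**
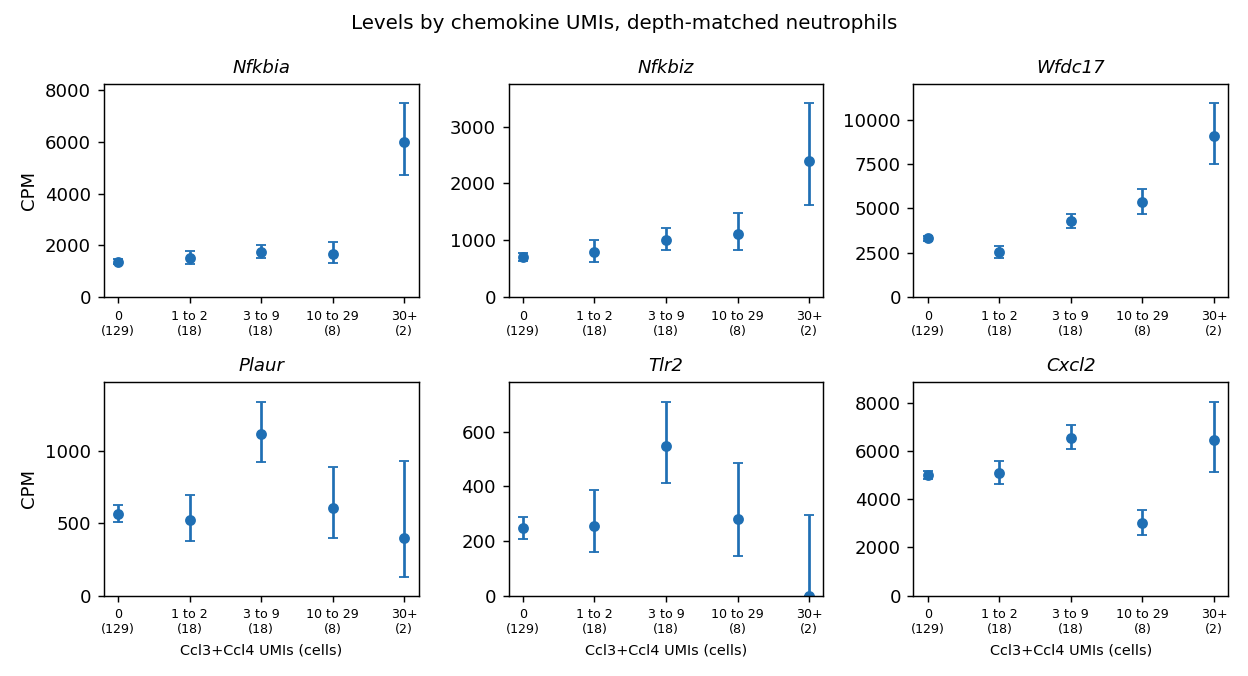
Levels of 6 genes (y axes, CPM) in matched neutrophils of the Cebpa dSftpc library, grouped by Ccl3 and Ccl4 UMIs (x axis, number of cells in brackets). Points are summed levels and bars exact 95% Poisson intervals. Nfkbia, Nfkbiz and Wfdc17 are highest in the 2 cells with 30 or more UMIs, and Plaur and Tlr2 in the 18 cells with 3 to 9. All but Cxcl2 were among the 20 genes ranked highest by the split at 3 UMIs in these same cells.

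Other cytokines were compared in the matched classes. Il1b, the cytokine interleukin-1 beta, was found in all 28 and all 147 cells, at 12108 and 11702 CPM, a log2 ratio of 0.05 (-0.02 to 0.12). Cxcl2 was at 5576 and 5009 CPM, a log2 ratio of 0.15 (0.05 to 0.26) and of 0.03 without its top cell. Its medians per cell were 5257 and 2542 CPM, and the ranges overlapped, from 0 to 18086 CPM and from 0 to 37047 CPM. Tnf, the cytokine tumor necrosis factor, had 10 and 25 UMIs, a log2 ratio of 0.84 whose interval runs from -0.38 to 1.95. Ccl6, a chemokine of myeloid cells, was at 2617 and 2272 CPM (0.20). Of the 11 genes of the list of other cytokines and chemokines that could be compared, 1 was 2-fold higher (Tnfsf14) and 1 lower (Vegfa), beside 0.716% and 2.81% of all genes, and the median was 0.15, or -0.27 with 10 or more against 0 chemokine UMIs. Over all 59 cells, 3 of 15 were 2-fold higher, namely Ccl5, Il18 and Tnf, beside 1.51% of all genes, and the median was 0.23, or -0.12 without cells with markers of another type and -0.0024 with 10 or more against 0 chemokine UMIs. Ccl5 and Il18 had 111 of 120 and 18 of 24 UMIs in 1 cell, and without it their log2 ratios were -1.18 and -0.17.

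Over all cells the list of NF-kB members and feedback targets had a median of 0.23 over 24 genes, with 1 higher and 1 lower, beside 1.51% and 4.88% of all genes. The median was 0.46 with 10 or more against 0 chemokine UMIs. In the matched cells the members of this list spread to both sides of 0. Nfkbid, a nuclear inhibitor, was at 234 and 147 CPM (0.67, 0.09 to 1.23) in the matched cells, while Tnfaip3, the ubiquitin-editing enzyme A20, was at 228 and 273 CPM (-0.26, -0.82 to 0.26). Rela, the p65 subunit, was at 57.0 and 90.6 CPM (-0.67, -1.86 to 0.35), and Tnfaip2 at 1742 and 1694 CPM (0.04). Bcl2a1b, a survival protein with near-identical copies, was at 114 and 116 CPM.

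Receptors for chemoattractants and cytokines had a median of 0.04 over 18 matched genes. Of these, 0 were past 2-fold, which is near the shares of all matched genes, 0.716% higher and 2.81% lower. Ccr1, a receptor for Ccl3, was at 817 and 709 CPM (0.21, -0.09 to 0.49). C5ar1, the receptor for complement C5a, was at 583 and 454 CPM (0.36), Ptafr, the receptor for platelet-activating factor, at 368 and 260 CPM (0.50), and Ccrl2, which binds chemerin, at 482 and 344 CPM (0.49). Csf1r, the receptor for macrophage colony-stimulating factor, was at 69.7 and 130 CPM (-0.90), and Cxcr4, which retains neutrophils in marrow, at 361 and 410 CPM (-0.18). Pattern recognition and Fc receptors had a median of 0.05 over 16 genes, again with 0 past 2-fold, beside the same 0.716% and 2.81% of all matched genes. Cd14, a co-receptor for lipopolysaccharide, was at 969 and 879 CPM (0.14), and Clec4d and Clec4e, lectins that bind microbial glycolipids, at 1198 and 1013 CPM (0.24) and at 862 and 821 CPM (0.07).

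Genes of neutrophil identity and granules were compared next. Of 20 identity genes outside the rule, 0 were past 2-fold over all cells, near the shares of all genes, 1.51% higher and 4.88% lower. Their median was -0.01, which was 0.50 after thinning to 1000 UMIs and 0.35 with equal weights per cell. In the matched cells 1 of 19 was lower (Asprv1), beside 2.81% of all matched genes, with a median of 0.08. The lower value of Asprv1 is that of the sums, while its medians per cell were 186 and 0 CPM. Hdc was at 1894 and 1776 CPM (0.09), and Lcn2, an iron-siderophore binding protein of granules, at 1419 and 1243 CPM (0.19). Granule genes had a matched median of -0.08 over 13 genes. Mmp8, neutrophil collagenase, was at 659 and 466 CPM (0.50, 0.17 to 0.82), and Ngp, a granule protein of immature neutrophils, had 10 and 23 UMIs. Adhesion genes had a matched median of -0.11 over 12 genes, with Itgb2, the shared chain of the beta2 integrins, at 437 and 589 CPM (-0.43, -0.82 to -0.06).

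The list of lysosome, iron and lipid handling genes had unlike medians in the 2 comparisons. Over all cells 7 of 25 were 2-fold higher, beside 1.51% of all genes, and the median was 0.51, or 0.18 without the top cell of each gene, 0.09 with 10 or more against 0 chemokine UMIs, -0.18 without cells with markers of another type and -0.21 with under 10 UMIs of other types, with Gpnmb, a lysosomal glycoprotein, at 2.86, Hmox1 at 2.39 and Ctsd, cathepsin D, at 1.17. In the matched cells the median was 0.06 over 19 genes, 0 were 2-fold higher and 2 were 2-fold lower (Cd68 and Abcg1), beside 2.81% of all matched genes, and Ctsd was at 621 and 623 CPM. Ferritin transcripts were close there, with Fth1 at 10531 and 10034 CPM (0.07). The list of genes reported for aged and tissue neutrophils moved from 0.27 to -0.18, with Cdkn1a, a cell cycle inhibitor, at 108 and 197 CPM (-0.87, -1.69 to -0.14) in the matched cells.

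**Figure D4:**
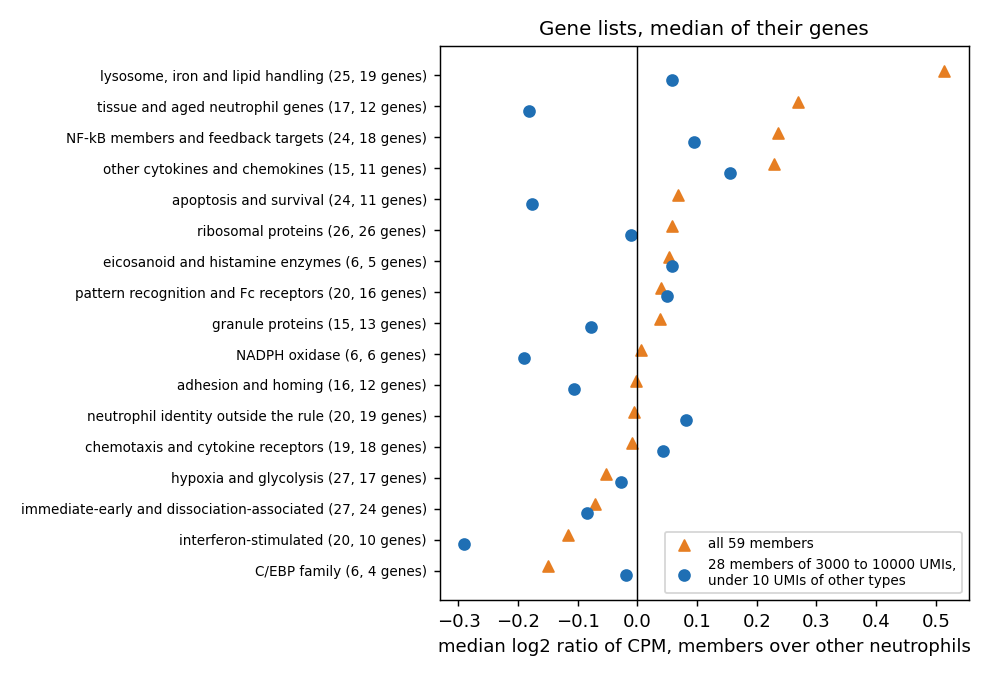
Median log2 ratio of the level in Ccl3/Ccl4 neutrophils over that in other neutrophils (x axis) for 17 gene lists (y axis, genes compared in all and in matched cells in brackets). Orange triangles are all 59 cells and blue circles the 28 matched cells; the lysosome list stands at 0.51 and at 0.06.

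The matched medians of stress and effector lists are set beside -0.05 for all genes. The 6 subunits of the NADPH oxidase, which makes superoxide, had a matched median of -0.19, each below 0, led by Cybb at 31.7 and 67.9 CPM (-1.10, from 5 and 48 UMIs). Over all 59 cells the median of the 6 was 0.01, with 3 above 0. Cybb went the other way there, at 941 and 669 CPM (0.49, 0.35 to 0.63). Of its 547 UMIs in the 59 cells, 538 lay in cells with 10 or more UMIs of another type. Over all genes, those cells held 407051 of the 581479 UMIs. Interferon-stimulated genes had a matched median of -0.29 over 10 genes, or -0.63 with 10 or more against 0 chemokine UMIs, with Slfn4 at 342 and 437 CPM (-0.35) and Rsad2, viperin, at 139 and 120 CPM (0.21). Immediate-early genes, which tissue digestion also induces, had a matched median of -0.08 over 24 genes. Fos was at 3643 and 4086 CPM (-0.17) and Atf3 at 374 and 269 CPM (0.48). Hypoxia and glycolysis genes had a matched median of -0.03 over 17 genes, and genes of apoptosis and survival -0.18 over 11. Enzymes of histamine and eicosanoid synthesis had a matched median of 0.06 over 5 genes, or -0.25 with 10 or more against 0 chemokine UMIs, with Ptgs2, cyclooxygenase 2, at 1033 and 992 CPM (0.06). Ribosomal protein genes were at -0.01 over 26 genes. In the C/EBP family, Cebpb, the member that drives emergency granulopoiesis, was at 3738 and 3582 CPM (0.06), and Cebpa, the deleted gene in AT2 cells, had 1 and 16 UMIs in the matched cells.

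Mitochondrial transcripts differed between the matched classes. All 12 mitochondrial genes with at least 50 UMIs had log2 ratios above 0, from 0.39 to 1.26, and they made up 1.22% of the UMIs of the Ccl3/Ccl4 neutrophils and 0.744% of the others. The medians per cell were closer, at 0.500% and 0.388%, and 1 and 4 cells had over 5%. Without those cells the shares were 0.910% and 0.478%. Over all 59 cells the order was the opposite, with a median of 1.21% against 1.67%. The part of mitochondrial share in the differences of Nfkbia, Nfkbiz, Wfdc17, Plaur and Tlr2 was not tested.

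The Ccl3/Ccl4 neutrophils held little of the chemokine RNA of the library. Of 4724 Ccl3 UMIs and 7524 Ccl4 UMIs in the Cebpa dSftpc library, they held 0.995% and 6.95%. Of 149 cells with 10 or more UMIs of both together, 18 were neutrophils and 131 were not, and the 131 had a median of 28 chemokine UMIs and of 1 UMI of S100a8 and S100a9. The largest source was 105 cells outside the neutrophil gate with at least 3 UMIs summed over Mcpt8, Cpa3, Fcer1a, Ms4a2, Cyp11a1 and Cd200r3, markers of basophils and mast cells, which held 63.1% of the Ccl3 and 60.4% of the Ccl4 at 7260 and 11065 CPM. There Ccl3 made up 39.6% of the sum, against 8.25% in the Ccl3/Ccl4 neutrophils and 2.85% in those with under 10 UMIs of other types. In endothelial cells Ccl3 made up 36.3% of the sum. The part of free RNA in these values was not tested.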

How the data were processed

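Each genotype gave 1 library of droplet-based 3′ scRNA-Seq. The deposited values are raw UMI counts per gene and barcode, which the authors made with Cell Ranger for build mm10. The file header names version 5.0.0 and the submitters' processing notes 6.1.1. The labels mention a FACS protocol and the methods a whole-lung suspension, so shares refer to the cells loaded. The filter of 200 genes and 20% mitochondrial UMIs was applied here, with at least 500 UMIs. Doublets were kept.

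Counts were summed per class of neutrophil and divided by all UMIs of the class (CPM). Sums were floored at 3 UMIs for ratios. Intervals are exact 95% intervals: Poisson for levels, Clopper-Pearson for shares, conditional binomial for ratios. Genes needed at least 50 UMIs over both classes, and gate and mitochondrial genes were left out. No p-value was computed, because no replicates exist. A gene was counted as higher or lower past 2-fold, a log2 ratio of 1.

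The genes named are the 20 with the highest lower bound and the 15 with the lowest upper bound of the log2 ratio, up to 6 per gene list with the largest ratios, the genes of the rule and the markers of other types. The same ranking was added for the matched comparison after seeing the data. Other genes of the lists were named as examples after their values were seen. The cells, the lists and these rules were chosen with earlier results of these data known. Where 2 rows share a symbol, the first was used. The summing and ratios, tested on simulated data, ran on Python 3.11.15, using scipy 1.17.1, numpy 2.4.6, pandas 2.3.3 and matplotlib 3.10.9.

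Alternatives were a stricter filter on cells, stricter gates, 10 or more chemokine UMIs, thinning to 1000 UMIs, equal weights per cell, other denominators, minimums of 20 and 200 UMIs per gene, leaving out the top cell of each gene or cells with UMIs of 2 or more markers of another type, and subtracting the library profile scaled by Sftpc. Those with under 10 UMIs of other types, over 14 marker lists without the dendritic cell list, were chosen after seeing the data.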

Additional observations from a re-analysis of the deposited data

How the results depend on the processing

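Each count rests on 1 library and on 59 cells, and many genes past 2-fold have few UMIs, so a change in a minimum moves the counts. The 97 higher and 313 lower genes, of 6418 compared, became 48 and 174 of 1813 after thinning to 1000 UMIs. They were 285 and 592 of 9052 with a minimum of 20 UMIs per gene, and 20 and 44 of 2420 with a minimum of 200. Subtraction of free RNA gave 299 and 157 of 6412 and moved the median of all genes from -0.01 to 0.19. Leaving out the top cell of each gene, which takes the highest value from 1 class only, gave 19 and 682 and a median of -0.19. Equal weights per cell gave 800 lower genes, and stricter neutrophil gates 176. Leaving out cells with UMIs of 2 or more markers of another type kept 6 and 68 cells and gave 19 and 54 of 698 genes. Among alternatives chosen after seeing the data, cells with under 10 UMIs of other types gave 18 higher genes of 2894. Those also within 3000 to 10000 UMIs gave 15 and 59 of 2096. In that range, 10 or more against 0 chemokine UMIs gave 28 and 84 of 1734. The counts under the other settings were within 1.5 times of 97 and 313.

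The number of Ccl3/Ccl4 neutrophils, 59, became 18 with at least 10 chemokine UMIs, 12 with thinned cells, 6 without cells with UMIs of 2 or more markers of another type and 33 with under 10 UMIs of other types. Their share of neutrophils was 2.80% with at least 10 UMIs and 2.73% with thinned cells. With 3 cells in place of 0, the log2 ratio of shares between the libraries was 4.09. It was 2.38 with at least 10 chemokine UMIs, 1.85 with thinned cells and 0.80 without cells with markers of another type. These settings keep fewer cells. Of 255 medians of 17 gene lists under the alternatives, 29 moved by 0.3 or more. Thinning gave 0.50 for neutrophil identity, 0.43 for chemotaxis and cytokine receptors, 0.43 for pattern recognition and Fc receptors, 0.45 for eicosanoid and histamine enzymes, 0.15 for the C/EBP family and -0.33 for ribosomal proteins, and equal weights gave 0.35, 0.36, 0.43 and 0.36 for the first 4. Without cells with markers of another type, receptors were at 0.44, other cytokines at -0.12, eicosanoid enzymes at -0.29, interferon-stimulated genes at -0.71, the C/EBP family at -0.47, lysosome genes at -0.18 and ribosomal proteins at -0.34. With under 10 UMIs of other types, aged neutrophil genes were at -0.26, lysosome genes at -0.21 and ribosomal proteins at -0.63. In the matched range aged neutrophil genes were at -0.18 and lysosome genes at 0.06. With 10 or more against 0 there, other cytokines were at -0.27, eicosanoid enzymes at -0.25, interferon-stimulated genes at -0.63, aged neutrophil genes at -0.16 and lysosome genes at -0.10. Over all cells, lysosome genes were at 0.09 and other cytokines at -0.0024 with 10 or more against 0, and lysosome genes at 0.18 without the top cell of each gene. No paired analysis was possible because each genotype had 1 library.

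Of 2284 log2 ratios of 194 named genes under the alternatives, 41, in 20 genes, changed sign from a value past 2-fold. With 10 or more against 0 chemokine UMIs these were Ccl5 at -0.88, Clec4n at -0.085, Ctsd at -0.047, H2-Eb1 at -0.30, Hmox1 at -2.14, Itgax at -0.0074, Lpl at -0.61, Mt1 at -0.95, Prdx1 at -0.34 and Tuba1b at -0.74. Without the top cell they were Ccl5 at -1.18, Clec4n at -0.17, H2-Eb1 at -0.44, Hmox1 at -1.14, Il18 at -0.17, Mt2 at -0.94 and Tuba1b at -0.024. With equal weights they were Abcg1 at -0.040, Atp6v0d2 at -0.0072, Il18 at -0.73 and Mrc1 at -0.14. Chil3 was at -0.077 after thinning and Sftpd at 0.076 after subtraction of free RNA. With under 10 UMIs of other types they were Abcg1 at -1.41, Chil3 at -1.25, Ctsd at -0.0099, H2-Eb1 at -0.92, Hmox1 at -0.70, Lpl at -0.91, Mt1 at -0.40, Prdx1 at -1.45, Sftpa1 at 0.20 and Tuba1b at -1.28. Also within 3000 to 10000 UMIs they were Abcg1 at -1.32, Calcrl at 0.10, Chil3 at -0.20 and Ctsd at -0.0042, and with 10 or more against 0 in that range Calcrl at 0.51, Chil3 at -1.08, Ctsd at -0.14 and Sftpc at 0.055. The causes of these changes were not tested.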

Other observations

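In the Cebpa fl/fl library, where the 3 neutrophils had no UMI of either chemokine, 12 cells with at least 3 UMIs summed over the 6 basophil and mast cell markers (Mcpt8, Cpa3, Fcer1a, Ms4a2, Cyp11a1 and Cd200r3) held 93.1% of the Ccl3 UMIs and 91.5% of the Ccl4 UMIs. Their levels were 8275 CPM (7661 to 8925) for Ccl3 and 14494 CPM (13677 to 15346) for Ccl4. In the Cebpa dSftpc library, the 45 cells that held 4 or more UMIs of Ncr1, Klrb1c, Klra8, Gzma and Prf1, genes of natural killer cells, had Ccl3 at 161 CPM (104 to 238) and Ccl4 at 541 CPM (431 to 669). The alveolar macrophage genes Marco, Plet1, Krt79, Fabp1 and Atp6v0d2, at 3 or more UMIs together, chose 236 cells of that library, in which the order was the opposite, with Ccl3 at 104 CPM (84.9 to 126) and Ccl4 at 25.5 CPM (16.5 to 37.7). The monocyte genes Ly6c2, Ccr2, F13a1, Ms4a6c, Ace and Treml4, at 4 or more UMIs together, chose 325 cells, where Ccl3 was at 46.9 CPM and Ccl4 at 98.0 CPM. Beside these levels, both chemokines summed to 73.3 CPM in endothelial cells, which should lack them. Each library is 1 sample, and none of these differences was tested.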
